A study of Mus musculus with 4 samples.

Results

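The genes described here are 9 transcription factor genes of the primitive streak and the first mesoderm, T (brachyury), Eomes, Mixl1, Mesp1, Mesp2, Tbx6, Msgn1, Evx1 and Gsc. They were taken by name, as 9 of the 21938 coding genes of GENCODE M21 on mm10, and every Smad1 peak within 20 kb of a gene body was collected from the 5 deposited peak lists. This gave 27 of the 76539 listed calls. The DMSO calls of both peak callers, merged where they overlapped, came to 13 of 30798 regions.

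Smad1 ChIP-seq was carried out in embryoid bodies (EBs), the aggregates in which mouse embryonic stem cells differentiate, on day 4 of culture. The GFP-Bry line was used, whose labels give the strain as C57BL/6 and in which GFP is knocked into the Bry locus, that is, into T, in both groups. Whole EB cultures, unsorted and pooled, received DMSO, the vehicle, or 10 µM IWR-1 for 24 h. Each treatment had 1 Smad1 ChIP and 1 input library, so differences between them cannot be checked over replicates and are given without p-values.

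Embryonic mesoderm arises where epiblast cells pass through the primitive streak, under BMP, Nodal and Wnt signals. BMP receptors phosphorylate Smad1, which enters the nucleus with Smad4 and binds short GC-rich elements and CAGAC-type elements. IWR-1 stabilizes Axin, so that β-catenin, the partner of TCF/LEF factors, is degraded. The peak lists hold no expression values, so the mesodermal state of the cells could not be checked against its markers.

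The lists differ in kind. MACS and QESEQ, 2 peak callers, each gave a DMSO list, of 15927 and 26070 peaks, and the study deposited 10466 common DMSO sites, each a QESEQ interval that overlaps a MACS peak. Merged here, 11175 DMSO regions held calls of both, so the common list does not hold every place both callers named. For IWR-1 the QESEQ list held 16261 peaks. A second MACS list, of 7815 peaks, is labelled in the deposit as DMSO ChIP. Its own name gives IWR-1, against that label, and the other MACS list gave the common DMSO sites, so it was taken as IWR-1. Results that use it name it, and their treatment is uncertain to that extent. MACS peaks carry a score that ranks them within their own list, whereas QESEQ peaks carry none. No list holds read counts, so the depth behind a peak is unknown and the absence of a call is not the absence of Smad1.

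The sequences of the 4 common DMSO sites near these genes are shown first, because both callers called them. Each is a stretch of the common site in the NCBI GRCm38 reference (mm10), read 5′ to 3′ on the strand of the gene. Capitals mark elements on either strand and runs of 7 or more A or T. The Smad elements searched were the GC-rich GGCGCC, its variant with another base, GGAGCC, the Smad-binding element CAGACA, and its palindromic form GTCTAGAC. The TCF/LEF elements were CTTTGAT and the related form CTTTGTT. The number after the gene is the distance in kb of the region's centre from the gene's start, positive in the direction of transcription.
Eomes +11 kb, chr9:118489152-118489301, plus strand: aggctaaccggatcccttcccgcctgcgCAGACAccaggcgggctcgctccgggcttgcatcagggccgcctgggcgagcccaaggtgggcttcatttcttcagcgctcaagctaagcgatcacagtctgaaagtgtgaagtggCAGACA
Tbx6 -7.3 kb, chr7:126774118-126774267, plus strand: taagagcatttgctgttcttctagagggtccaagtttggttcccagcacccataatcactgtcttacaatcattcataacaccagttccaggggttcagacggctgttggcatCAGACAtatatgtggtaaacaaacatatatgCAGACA
Evx1 +9.0 kb, chr6:52322355-52322504, plus strand: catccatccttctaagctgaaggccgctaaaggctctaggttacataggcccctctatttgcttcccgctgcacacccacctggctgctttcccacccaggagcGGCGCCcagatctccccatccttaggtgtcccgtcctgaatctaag
Gsc -3.5 kb, chr12:104476741-104476890, minus strand: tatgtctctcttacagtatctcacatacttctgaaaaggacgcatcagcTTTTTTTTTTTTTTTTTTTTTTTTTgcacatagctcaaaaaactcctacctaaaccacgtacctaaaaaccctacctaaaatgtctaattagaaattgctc

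The next stretches come from the 3 DMSO regions that also had a call in the IWR-1 QESEQ list, and lie within the bases that the calls of both treatments share.
Mesp1 +10.8 kb, chr7:79782684-79782833, minus strand: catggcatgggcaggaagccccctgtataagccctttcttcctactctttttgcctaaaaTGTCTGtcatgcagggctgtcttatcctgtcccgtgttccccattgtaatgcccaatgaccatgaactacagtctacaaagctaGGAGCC
Evx1 -5.3 kb, chr6:52308105-52308254, plus strand: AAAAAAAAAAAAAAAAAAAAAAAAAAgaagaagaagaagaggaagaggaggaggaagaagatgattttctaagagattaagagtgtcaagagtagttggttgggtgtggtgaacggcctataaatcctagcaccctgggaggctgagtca
Evx1 -0.3 kb, chr6:52313000-52313299, plus strand: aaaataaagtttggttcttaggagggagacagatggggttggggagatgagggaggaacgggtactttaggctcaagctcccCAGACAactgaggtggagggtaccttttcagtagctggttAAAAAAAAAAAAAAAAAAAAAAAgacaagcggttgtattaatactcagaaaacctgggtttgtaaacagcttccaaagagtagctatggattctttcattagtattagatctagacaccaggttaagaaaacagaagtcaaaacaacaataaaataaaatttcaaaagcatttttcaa

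Of the 9 genes, 6 had a DMSO call within 20 kb (66.7%, exact binomial interval 29.9 to 92.5%), and 4 had a common DMSO site (44.4%, 13.7 to 78.8%). Intervals are 95% Clopper-Pearson limits and cover counting error over genes or regions only. Among all coding genes 64.3% had a DMSO call and 35.1% a common site. The 9 genes are short, with a median body of 3992 bp against 17425 bp for all coding genes, and the longest, T, spans 8074 bp. Among the 6589 coding genes no longer than this, a set chosen after the data had been seen, 48.4% had a DMSO call and 22.4% a common site. Both intervals of the 9 genes hold both of these backgrounds, so neither share stood apart from coding genes at this number of genes.

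**Figure D1:**
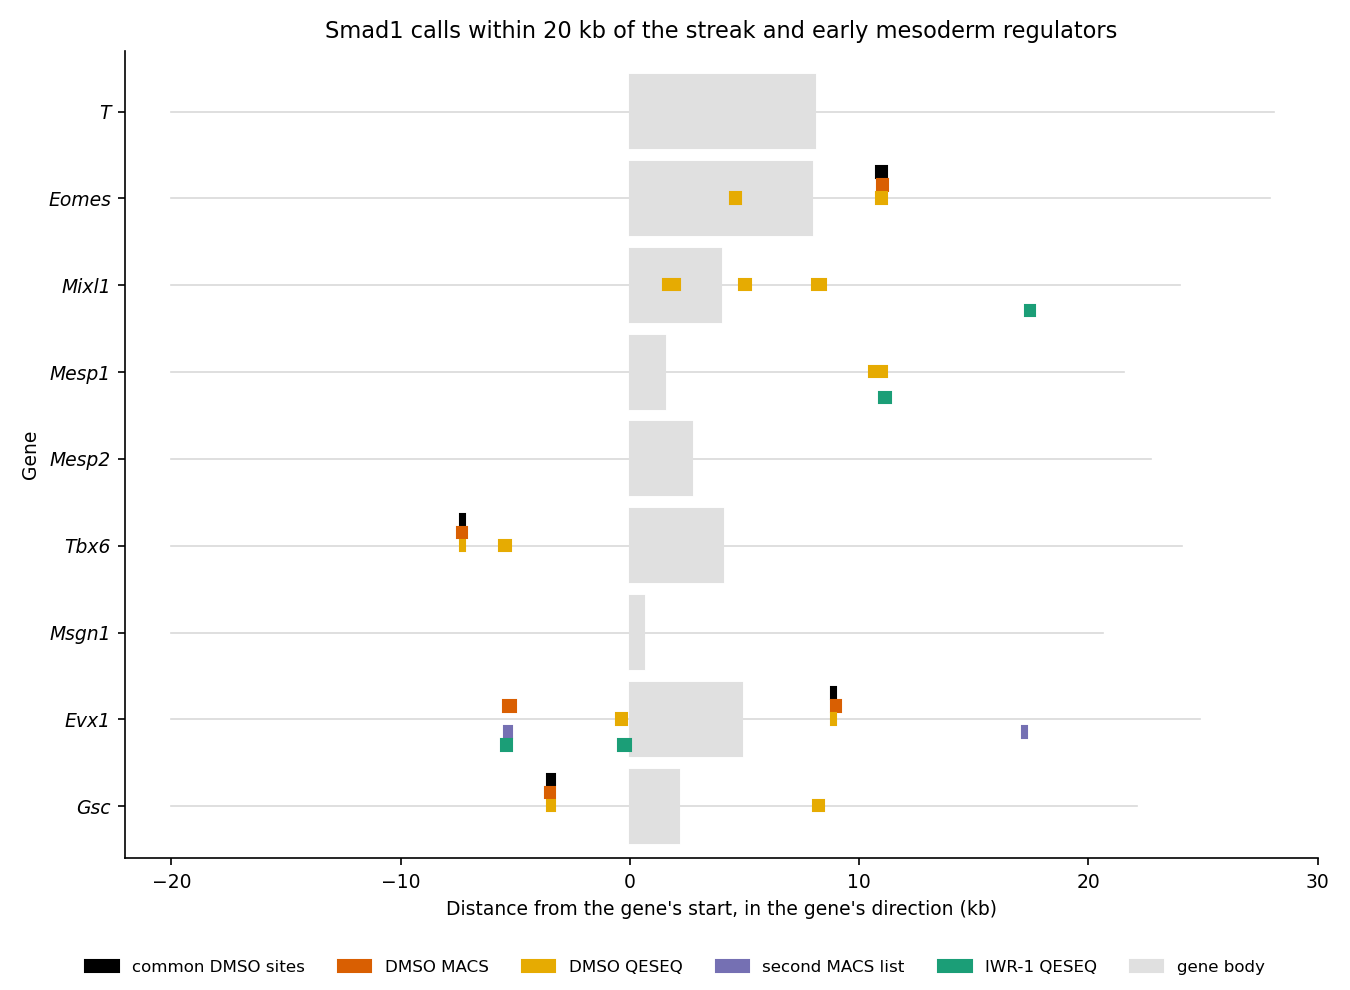
Calls of the 5 lists around each gene, with the distance from the gene's start in the gene's direction (kb) on the x axis, the gene on the y axis, the gene body in grey and the searched window as a line. T, Mesp2 and Msgn1 have no call, and no DMSO call lies more than 10 kb from a gene body.

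The genes fell into 4 patterns of calls. Eomes, Tbx6 and Gsc had calls of both DMSO callers and none in the IWR-1 QESEQ or second MACS list, a pattern held by 7.1% of the coding genes of like length. Mixl1 and Mesp1 were called by QESEQ only, under both treatments, as were 6.15%. At Mesp1 the DMSO and IWR-1 calls overlapped, whereas at Mixl1 they lay at different places. Evx1 was the only gene of the 9 with a call in every list. Of the coding genes of like length, 9.5% had a call in all 4 MACS and QESEQ lists, with or without a common site. T, Mesp2 and Msgn1 had no call in any list, as had 43.4%.

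T encodes brachyury, the T-box factor that defines nascent mesoderm. Its body (chr17:8434423-8442496, plus strand) and the 20 kb on either side held no call. The nearest was a common DMSO site 39.0 kb beyond its 3′ end, with a MACS score of 51.11, at percentile 4.62 of the DMSO MACS list. The nearest IWR-1 QESEQ call was 197 kb away.

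Eomes, a T-box factor needed for mesoderm and definitive endoderm, lies at chr9:118478212-118486132 on the plus strand. QESEQ alone called a DMSO region at +4.6 kb (chr9:118482594-118483062), in intron 5 of the 6-exon main transcript, which also overlaps an annotated UTR of another transcript. The common site at +11 kb, chr9:118488950-118489428, lies 2.82 kb past the 3′ end, over an exon of the antisense noncoding gene Gm33460. Its MACS score of 68.01, at percentile 56, was the highest of the 9 genes in the DMSO MACS list, and it held 3 CAGACA elements. Neither region had a call in the IWR-1 QESEQ or second MACS list.

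Mixl1, a paired-type homeobox gene of the streak, lies at chr1:180693043-180697034 on the minus strand. It had 3 DMSO regions, all from QESEQ alone. At +1.8 kb (chr1:180694831-180695607) the call covered 686 bp of the only intron and 91 bp of exon 2, and held 1 GGCGCC and 2 CAGACA elements. At +5.0 kb (chr1:180691760-180692283), between genes, there were 2 CAGACA elements. The region at +8.3 kb (chr1:180688463-180689071), inside the neighbouring gene Lin9, held no element. None of the 3 was called in the IWR-1 QESEQ or second MACS list, but the IWR-1 QESEQ list had a peak of its own at +17.5 kb (chr1:180679358-180679797), also in Lin9.

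Mesp1 and Mesp2 are neighbouring bHLH genes on chromosome 7, Mesp1 an early marker of cardiovascular progenitors and Mesp2 a regulator of somite borders. Mesp1 lies at chr7:79792241-79793788 on the minus strand and had 1 DMSO region, from QESEQ alone, at +10.8 kb (chr7:79782568-79783363) in an intron of Wdr93. It held 1 GGAGCC and 2 CAGACA elements. The IWR-1 QESEQ peak at chr7:79782406-79782902 shared 335 bp with it, 42.1% of the DMSO region and 67.4% of the IWR-1 peak. Mesp2 (chr7:79810727-79813439, plus strand) had no call within 20 kb. The same DMSO region lies 27.4 kb from its body, and its nearest DMSO call was a QESEQ peak 26.3 kb away, in an intron of Anpep.

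Tbx6, the T-box factor of presomitic mesoderm, lies at chr7:126781483-126785560 on the plus strand. Its common site at -7.3 kb, chr7:126774083-126774310, had a score of 54.64, at percentile 18.3, with 2 CAGACA elements. QESEQ alone called a region at -5.4 kb (chr7:126775779-126776295), the only one of the 13 without a run of 7 A or T. The start nearest to both was not that of Tbx6 but of Ypel3, at 2797 and 918 bp from the centres of the 2 regions. Neither was called in the IWR-1 QESEQ or second MACS list, and the nearest call of each of these was 50.6 kb upstream of Tbx6.

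Msgn1, a bHLH gene of presomitic mesoderm (chr12:11208360-11208972, minus strand), had no call within 20 kb. A DMSO QESEQ peak lay 24.3 kb downstream and a common site 38.6 kb upstream, over Gen1. The score of that site, 89.39, at percentile 83.3, was above each of the scores within 20 kb of the 9 genes in the DMSO MACS list.

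Evx1, a homeobox gene of the posterior streak, lies at chr6:52313498-52318378 on the plus strand and had 3 DMSO regions. At -5.3 kb (chr6:52307945-52308512), over an exon of the antisense gene Evx1os, MACS but not QESEQ listed a DMSO peak with a score of 66.84 (percentile 53.4). The IWR-1 QESEQ list and the second MACS list also called this place, with a score of 83.31 at percentile 79.8 of the latter. Scores of different lists were not compared. The IWR-1 QESEQ peak shared 415 bp with the DMSO region, 73.1% of it. No Smad or TCF/LEF element was found there.

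The call nearest to any start of the 9 genes was also at Evx1. A QESEQ region centred 348 bp upstream of the start (chr6:52312912-52313388) held 1 CAGACA. The IWR-1 QESEQ list called chr6:52312970-52313533, which shares 419 bp with it, 87.8% of the DMSO region, and reaches into the first exon. The common site, chr6:52322275-52322504, lies at +9.0 kb, 3.9 kb past the 3′ end, with a score of 50.92 (percentile 3.87), and its region held 1 GGCGCC and 1 GGAGCC. It had no call in the IWR-1 QESEQ or second MACS list. The second MACS list gave a further peak at +17.2 kb (chr6:52330606-52330823), with a score of 59.92 (percentile 42.1) and no DMSO call.

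Gsc, the homeobox gene of the organizer, lies at chr12:104471209-104473330 on the minus strand. Its common site at -3.5 kb, chr12:104476616-104476967, over an exon of the noncoding gene Gm10000, had a score of 62.69 (percentile 43.6) and no element. The QESEQ region at +8.2 kb held 2 CTTTGTT elements. Neither was called in the IWR-1 QESEQ or second MACS list, and the nearest IWR-1 QESEQ call was 79.3 kb away.

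The scores near these genes were modest for the list. The 5 DMSO MACS peaks had scores of 50.92 to 68.01 with a median of 62.69, and the list as a whole had a median of 65.32 and a highest score of 3226.07. None of the 5 reached 100, and most of the list did not either, its percentile 88 being 98.52. The window of 20 kb decided which calls were counted, the farthest inside being the IWR-1 QESEQ peak 13.2 kb from Mixl1 and the closest outside an IWR-1 QESEQ peak 22.1 kb from Evx1.

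**Figure D2:**
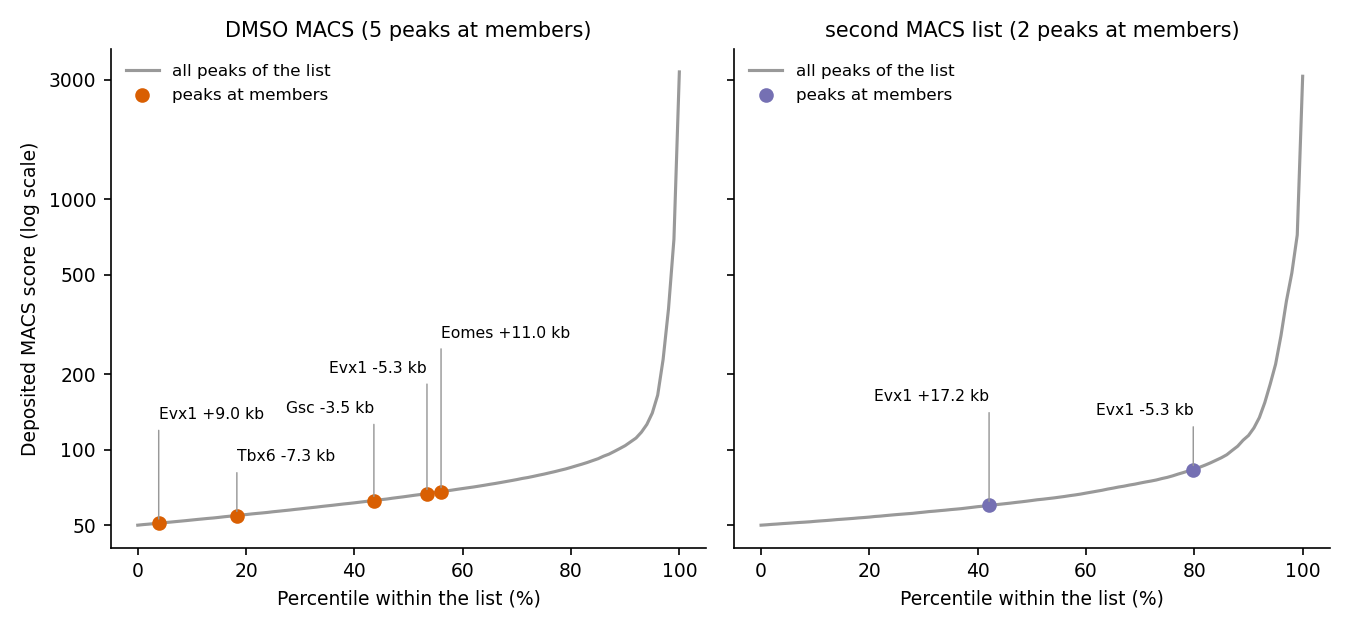
Deposited MACS score (log scale) against its percentile within the list, for the DMSO MACS list on the left and the second MACS list on the right, with all peaks as a line and the peaks near the 9 genes as points. The 5 DMSO peaks lie between 50.92 and 68.01, below the rise of the curve, and the highest of the 2 on the right is Evx1 -5.3 kb at 83.31.

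All 13 DMSO regions lay within 10 kb of a gene body. Of these, 5 were upstream, 2 over the body and 6 downstream, and 1 had its centre within 1 kb of the gene's start. No like shares over all DMSO regions are given, so these places only describe the 13. Over the merged windows of the 9 genes, 0.373 Mb, there were 34.9 DMSO regions per Mb. All coding genes had 14.7 and those of like length 17.8. The exact Poisson interval, 18.6 to 59.6, covers counting error only and takes regions as independent, although most called genes had more than 1. By list, DMSO QESEQ had 32.2 per Mb against 16 for genes of like length. Common sites, only 4, had 10.7 against 6.14, and IWR-1 QESEQ peaks 10.7 against 10.3. Mixl1 and Evx1 had 3 regions each, a number reached by 8.12% of coding genes of like length. The same 13 regions, over the smaller windows of 10 kb, gave 61.1 per Mb, against 18.3 for genes of like length. Over windows of 50 kb the density was 29.3, against 17.1. Of the 6 called genes 5 had at least 2 regions, as had 1367 of the 3188 called genes of like length.

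Of the 13 regions, 8 were listed by QESEQ alone (61.5%, 31.6 to 86.1%), against 48.3% of all DMSO regions. A further 4 were called by both callers and 1 by MACS alone.

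With IWR-1, 3 of the 9 genes had a QESEQ call within 20 kb (33.3%, 7.49 to 70.1%), against 47.2% of all coding genes and 33.5% of those of like length. In the second MACS list 1 of 9 had a call (11.1%, 0.281 to 48.2%), against 26.8% and 17.1%.

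**Figure D3:**
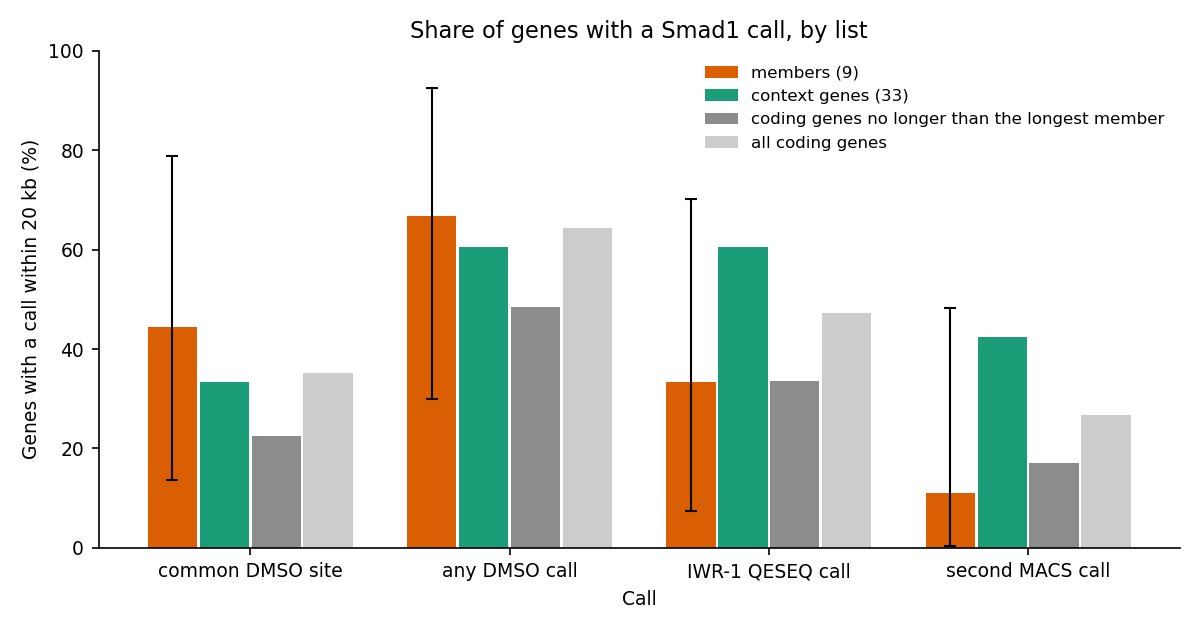
Share of genes (%) with a call within 20 kb, by list, for the 9 genes, 33 context genes, coding genes no longer than the longest of the 9, and all coding genes. Error bars are 95% exact binomial intervals for the 9 genes, and each of them spans both coding gene shares.

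Of the 13 DMSO regions, 3 overlapped an IWR-1 QESEQ peak (23.1%, 5.04 to 53.8%), and 24.8% of all DMSO regions did. The second MACS list overlapped 1 (7.69%, 0.195 to 36%), against 18% of all. Among the 8 regions of QESEQ alone, 2 had an IWR-1 QESEQ call (25%, 3.19 to 65.1%), against 17.1% of all such regions. The share at these genes was thus close to that of the list as a whole.

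None of the 4 common sites, at Eomes, Tbx6, Evx1 and Gsc, had an IWR-1 QESEQ call, which allows a share of up to 60.2%. Of all common sites 37% had one. Among the 5267 common sites with a score in the range of these 4, from 50.92 to 68.01, the share was 29.9%. This comparison set was added after the data had been seen. With 4 sites, a difference from these shares was not detectable.

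Conversely, of the 4 IWR-1 QESEQ peaks near the genes 1, at Mixl1 +17.5 kb, overlapped no DMSO call (25%, 0.631 to 80.6%), against 52.9% of that list. With the second MACS list merged in there were 5 regions, of which 2 had no DMSO call (40%, 5.27 to 85.3%), against 49.7% of all such regions. The added one, Evx1 +17.2 kb, rests on the second MACS list alone, and is a call without DMSO only if that list is IWR-1.

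Smad elements were found in 7 of the 13 regions (53.8%), in 65.4% of 26 windows of the same width 2 kb to either side, and in 47.6% of all DMSO regions. CAGACA was in 6 regions (46.2%, beside 50% and 35.8%), GGCGCC in 2 (15.4%, beside 3.85% and 2.15%) and GGAGCC in 2 (15.4%, beside 34.6% and 18.8%). The palindrome GTCTAGAC was in none, as in 0.403% of all DMSO regions. Windows on both sides of all 13 regions were counted, so a window may lie over another called region. With that limit, the elements were no more frequent in the called regions than in these windows, except for GGCGCC. That exception is 2 regions, Mixl1 +1.8 kb and Evx1 +9.0 kb, against 1 window, too few to tell a difference.

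A TCF/LEF element was found in 1 of the 13 (7.69%), at Gsc +8.2 kb, in 26.9% of the windows beside them and in 19.9% of all DMSO regions. CTTTGAT was in none. No region held both kinds of element, against 9.52% of all DMSO regions.

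Runs of A or T were more widespread than either kind of element. A run of 7 or more lay in 12 of the 13 regions (92.3%) and in 34.6% of the windows beside them, and in 81.9% of all DMSO regions. A run of 20 or more, a length chosen after the data had been seen, lay in 11 (84.6%), in 7.69% of the windows beside them and in 62.8% of all DMSO regions. The longest, of 35, was at Eomes +11 kb. Within the common sites themselves, which are narrower than the merged regions, 2 of 4 held a run of 20 or more, at Eomes and Gsc. The longest run in the other two was of 6 bases at Tbx6 and 5 at Evx1. Within the bases shared with an IWR-1 QESEQ peak 2 of 3 held one, both at Evx1, and the longest at Mesp1 was of 5. The part of these runs in the calls was not tested. The regions had a median width of 517 bp and a median GC content of 45.3%, against 475 bp and 42.1% over all DMSO regions. Bases marked as repeats in the reference made up from 10.1% of a region, at Evx1 +9.0 kb, to 87.7%, at Tbx6 -7.3 kb, both of them regions with a common site.

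**Figure D4:**
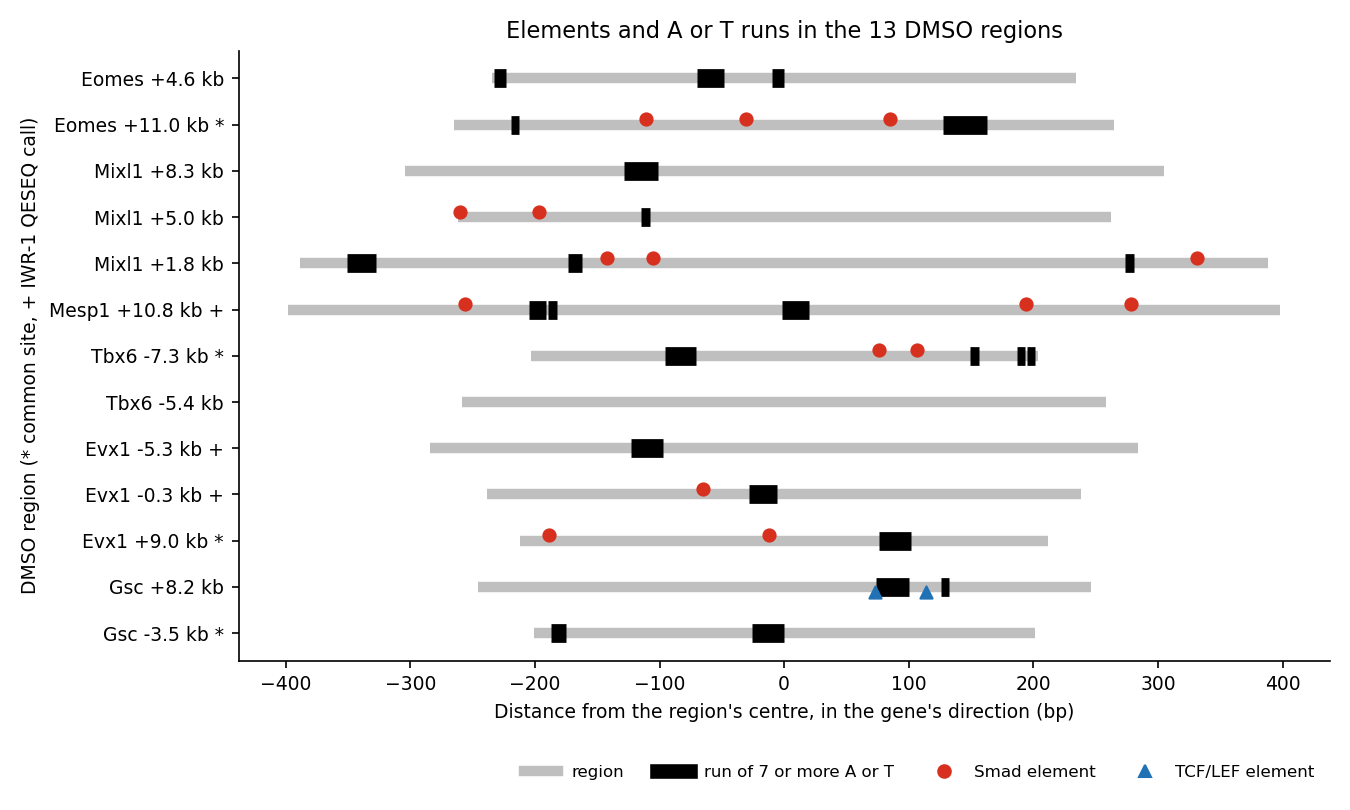
Place of Smad elements (circles), TCF/LEF elements (triangles) and runs of 7 or more A or T (black) in the 13 DMSO regions (grey), with the distance from the region's centre in the gene's direction (bp) on the x axis and 1 region per line. Runs appear in every region but Tbx6 -5.4 kb, and TCF/LEF elements only at Gsc +8.2 kb.

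The other genes of the streak and mesoderm were read in the same way, for a list of 33. A DMSO call lay within 20 kb of 20 of them (60.6%), a common site of 11 (33.3%), an IWR-1 QESEQ call of 20 (60.6%) and a call of the second MACS list of 14 (42.4%). Over all coding genes these shares were 64.3%, 35.1%, 47.2% and 26.8%. Of the 8 streak signals, secreted factors and a coreceptor such as Nodal, Wnt3 and Tdgf1, 5 had a DMSO call and 7 an IWR-1 QESEQ call. Of the 9 other streak, organizer and endoderm factors, 6 had a DMSO call and 3 an IWR-1 QESEQ call, the same counts as the 9 genes described here. A common site lay near 2 of these factors, against 4 of the 9 genes. Of the 16 later mesoderm genes, 9 had a DMSO call and 10 an IWR-1 QESEQ call. Several of these genes are long, and over the 21 that are no longer than T, 12 had a DMSO call and 11 an IWR-1 QESEQ call. Among all coding genes of like length, 48.4% and 33.5% had one. These are counts over chosen lists, with no test between them.

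Some of these genes shared a pattern of calls with one of the 9. Sp5, a Wnt-responsive zinc finger gene, had DMSO calls of both callers and none in the IWR-1 QESEQ or second MACS list, like Eomes, Tbx6 and Gsc, and its common site had a score of 77.68. Tdgf1, the Nodal coreceptor, and Lhx1, a LIM homeobox gene of the organizer, were called by QESEQ alone, in its DMSO and IWR-1 lists, like Mixl1 and Mesp1. Nodal, Wnt3, Snai1, Lefty2, Dll3, Hes7, Lfng, Rspo3 and Etv2 had calls in every list, like Evx1. Calls in all 4 MACS and QESEQ lists, with or without a common site, were held by 9.5% of coding genes of like length. The highest common-site score of each of these named genes ran from 53.84 at Rspo3 to 1186.57 at Hes7, and all 3 common sites at Hes7 lay at tRNA genes. Wnt3 (43808 bp) and Rspo3 (83452 bp) are much longer than Evx1 (4881 bp), so more sequence was searched around them. No region near the 9 genes lay at a tRNA gene.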

How the data were processed

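Single-end Smad1 ChIP-seq reads were aligned by the authors to mm10 with Bowtie2 2.1.0, according to the submitters' processing notes, PCR duplicates were removed and peaks were called with MACS and QESEQ. The deposited lists hold positions, and for MACS the authors also deposited the score of each peak. No read counts or signal were used here, so depth per peak is unknown.

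The labels and the lists disagree. The DMSO MACS and common lists are attached to the DMSO input, and the DMSO QESEQ list to the IWR-1 input. They were taken as DMSO by their own names. As a check, each of the 10466 common sites is an interval of that QESEQ list and overlaps a peak of that MACS list. The second MACS list overlaps 2701 common sites. It is labelled as DMSO ChIP but was taken as IWR-1 by its own name, being also the MACS list left. QESEQ positions were read as counted from 0, like those of MACS, and are printed from 1.

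DMSO peaks of both callers were merged where they overlapped by 1 bp or more, and likewise for IWR-1. Windows of 20 kb were taken around GENCODE M21 gene bodies. Shares of the 9 genes and of their regions with a call carry exact binomial intervals, while shares with an element or a run carry none. Elements were searched on both strands of the NCBI GRCm38 reference. Stretches of 7 of the 13 DMSO regions are printed, and 1 other is not reported here. Named genes are the 9 members with all calls within 20 kb and the nearest call beyond, genes whose start is nearest to a member call, and context genes with the pattern of a called member; a few neighbours that hold a call were added after their values were seen. The members and lists were chosen with earlier results of these data known. Genes of like length, sites of like score and runs of 20 were added after seeing the data. Alternatives covered the window, caller, score, overlap rule, transcript model and motif window. The work was done in Python 3.11.15 (pysam 0.24.0, scipy 1.17.1, numpy 2.4.6; figures with matplotlib 3.10.9), and the code for overlaps and elements was tested on simulated data.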

Additional observations from a re-analysis of the deposited data

How the results depend on the processing

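A count or density was taken as unmoved within 1.5 times its value and a share within its 95% interval. By these limits 19 values were unmoved and 11 moved. The limits are wide: the share of DMSO regions called with IWR-1, 23.1%, counted as unmoved at 7.69% with the second MACS list or both lists and at 15.4% with an overlap of 50% of each peak. Genes with a DMSO call went from 6 to 9 within 50 kb, T, Mesp2 and Msgn1 included, and to 4 with MACS alone. No share of coding genes within 50 kb is given beside the counts at 50 kb. Within 20 kb, 64.3% of all coding genes already had a DMSO call. QESEQ peaks have no score, so a DMSO MACS score of at least 100 drops all of them. This limit also drops most DMSO MACS peaks, percentile 88 of that list being 98.52. It left 0 genes with a DMSO call, in place of the 4 of MACS alone, 0 with a common site, and no region for a share with IWR-1. Within 50 kb, 8 genes had a common site in place of 4, and 19 context genes in place of 11. Within 10 kb the density was 61.1 DMSO regions per Mb in place of 34.9, and within 50 kb it was 29.3. Over common sites only, the share with an IWR-1 QESEQ call was 0%, 3 regions held a Smad element and 0 a TCF/LEF element. In the central 200 bp, 4 regions held a Smad element in place of 7. Of the 2 IWR-1 calls without a DMSO call, 1 was left with the IWR-1 QESEQ list only, a setting added after the data had been seen, and 0 where the second MACS list had to call them too. The cause of these changes, beyond the smaller number of regions or the larger window, was not tested. With 1 library per treatment, 9 genes and 13 regions, intervals are wide. No paired analysis was possible because each group has 1 sample.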

Other observations

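Beyond the window of 20 kb and within 50 kb, calls lay near 6 of the 9 genes: T, Eomes, Mesp1, Mesp2, Msgn1 and Evx1. No share of coding genes is given for this distance, so the count is a description only. Evx1 had a common DMSO site 29.8 kb upstream (chr6:52282557-52283699, MACS score 60.91), towards Hoxa13, which overlapped an IWR-1 QESEQ peak. Eomes had a common DMSO site 33.2 kb downstream in an intron of Golga4 (chr9:118519347-118519684, score 61.51), which also overlapped an IWR-1 QESEQ peak. Mesp1 had common DMSO sites 41.9 and 48.0 kb downstream, both in Wdr93, and the farther one, near the start of Wdr93, had a call in every list. No call of the IWR-1 QESEQ or second MACS list lay within 50 kb of T, Tbx6, Msgn1 or Gsc. These places were described after the calls had been seen, and which gene, if any, they act on was not tested.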
